A study of Homo sapiens with 30 samples.

Results

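The 9 genes described here are feedback regulators and close partners of the BMP and TGF-beta pathway: SMAD6, SMAD7, SMAD9, SMURF1, SMURF2, SKIL, BAMBI, BMP4 and TGIF1. They were taken by symbol from a list, which was chosen with earlier results of these data known. All 9 were found among the 57992 genes of the deposited RNA-Seq table. The study asked how Omomyc, a recombinant protein made from the dimerization and DNA-binding domain of MYC that blocks MYC-driven transcription, changes gene expression in 2 human cancer cell lines. HCT116 cells, a colon carcinoma line described in the labels as having stabilized MYC, were left untreated or exposed to the protein at 2 or 10 μM, and collected after 6 or 24 h. The Ramos line, a Burkitt's lymphoma with a MYC translocation, had untreated cells and cells exposed to 0.5 or 2.5 μM for the same times. Each of the 10 groups had 3 replicates, so 15 libraries came from each line.

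Several features limit the groups. The lower HCT116 dose is 2 μM in the labels, whereas the paper's methods give 2.5 μM. Libraries whose titles give 24 h carry a time of 4 h in a separate tag, and the titles were followed. Each line had a single untreated group with no time of its own, so all 4 treated groups of a line were compared with the same 3 libraries. Omomyc was brought into HCT116 cells with ProteoJuice, a reagent for protein transfection, and it is not clear whether the untreated cells received it, so the reagent and Omomyc cannot be told apart there. Whether replicates were separate cultures is not stated, and p-values measure the spread between these libraries. HCT116 cells are known to carry inactivating mutations of TGFBR2, the type II TGF-beta receptor.

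In this pathway, ligands of the TGF-beta and BMP families bind pairs of type I and type II receptor kinases, which phosphorylate receptor-regulated SMAD proteins that enter the nucleus with SMAD4. The pathway also switches on its own inhibitors. The inhibitory SMADs, SMAD6 and SMAD7, occupy activated type I receptors, the ubiquitin ligases SMURF1 and SMURF2 mark receptors and SMADs for degradation, BAMBI is a receptor-like protein without a kinase domain, and SKIL and TGIF1 are nuclear repressors of SMAD-driven transcription. In colon epithelium BMP signaling is known for favoring differentiation over stem cell growth, and in B cells TGF-beta restrains proliferation.

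The labelled lines were checked against defining markers. The summed level of 6 B cell markers, among them CD79A and PAX5, lay between 0.705 and 3.12 RPKM (reads scaled by gene length and library size) in the HCT116 libraries and between 1462 and 1618 RPKM in the Ramos libraries, and 5 of the 6 were under 0.5 RPKM in every HCT116 library. The sum of 7 epithelial markers, among them EPCAM and KRT18, lay between 1103 and 1764 RPKM in HCT116 and between 0.321 and 1.53 RPKM in Ramos, and 1 of the 7 was under 0.5 RPKM in every HCT116 library. Replicate 3 of HCT116 at 10 μM and 6 h stood apart, with a summed RPKM of 1051041 where the other HCT116 libraries summed to between 593633 and 836899. The number of reads per library is unknown, and RPKM is relative within a library, so a fall of a gene and a change in total RNA per cell cannot be told apart.

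The promoters of SMAD6, SMAD7, SMAD9 and SMURF2 are shown because these were the members with the deepest falls in HCT116 cells, and because DNA motifs of the pathway and of MYC could be looked for there. RefSeq windows on GRCh38.p14, from 250 bases before a transcription start to 50 bases after it, were matched for all 9 genes by symbol, with 19 windows in all since TGIF1 has 7, and SMAD7 and BMP4 3 each. Capitals mark CACGTG (the E box that MYC and MAX bind), GTCTAGAC (the palindrome bound by SMAD3 and SMAD4), GGCGCC (a GC-rich SMAD element) and CAGAC or its reverse complement GTCTG, searched on both strands, and none of these contains another. Letters run 5′ to 3′ on the strand of the gene.
SMAD6, chr15:66702116-66702235, plus strand: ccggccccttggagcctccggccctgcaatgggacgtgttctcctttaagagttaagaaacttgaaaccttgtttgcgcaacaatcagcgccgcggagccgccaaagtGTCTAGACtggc
SMAD7, chr18:48951165-48951194, minus strand: gccggacgccccCAGACctctgaggttcga
SMAD9, chr13:36920279-36920448, minus strand: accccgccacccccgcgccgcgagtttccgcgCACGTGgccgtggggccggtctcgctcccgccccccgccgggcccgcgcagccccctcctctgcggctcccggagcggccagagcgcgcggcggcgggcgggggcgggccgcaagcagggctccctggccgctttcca
SMURF2, chr17:64662304-64662427, minus strand: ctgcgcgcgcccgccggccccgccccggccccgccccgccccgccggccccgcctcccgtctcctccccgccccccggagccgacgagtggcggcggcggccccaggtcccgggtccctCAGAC
The SMAD6 stretch lies just before the RefSeq start and its last 8 bases fall in the first exon annotated by GENCODE. The SMAD7 stretch is a short site within a GENCODE exon of SMAD7, the SMAD9 stretch lies within the bounds of the gene but in no annotated exon, and the SMURF2 stretch runs up to its RefSeq start, where its CAGAC lies.

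Within these windows the palindrome was matched in SMAD6 alone among the members, 12 bases before the start, and 0.202% of all 35116 RefSeq windows hold it. Sites outside the windows, of SMAD7 or any other member, were not searched. The E box was matched in a window of SMAD9, 178 bases before the start, and in 1 of the 3 windows of BMP4, against 7.26% of all windows. GGCGCC was matched in SKIL, BAMBI and BMP4, against 19.2% of all windows. CAGAC or GTCTG was matched in 15 of the 19 windows, against 45.3% of all windows, and in 8 of the 9 genes. The share is of single windows, so it is no background for genes with several. Overlapping windows of TGIF1 also share a site. These are matches of letters and not measured binding.

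The untreated cells of the lines differed in most members. SMAD6 was at 2.20, 2.50 and 2.35 RPKM in untreated HCT116 cells and at 0.322, 0.179 and 0.232 RPKM in untreated Ramos cells. SMURF2 was at 98.6, 95.4 and 103.0 RPKM in HCT116 and at 6.81, 8.09 and 7.29 RPKM in Ramos, a 13.4-fold ratio of means. TGIF1 was 10.4-fold and BAMBI 12.7-fold higher in HCT116, SMAD7 5.17-fold and SMURF1 1.37-fold. BMP4, a secreted BMP ligand, was at 91.0, 88.7 and 82.1 RPKM in HCT116 and was listed at 0 in all 3 untreated Ramos libraries, as was SMAD9, a receptor-regulated SMAD of the BMP branch, so no fold is given for these. SKIL was the exception, at 8.60, 8.43 and 8.55 RPKM in HCT116 and 10.9, 11.4 and 10.3 RPKM in Ramos. In limma's test on log2(RPKM + 0.5), with a Benjamini-Hochberg adjusted p under 0.05 as the threshold for a call, 8 members were higher and SKIL lower in HCT116. The lines differed in 84.6% of the 15647 genes tested, so 9 calls of 9 are near that background. SMAD6, SMAD7, SMAD9, BAMBI and BMP4 had means under 0.5 RPKM in untreated Ramos cells. They passed the filter, a mean of at least 0.5 RPKM over the groups compared, through their HCT116 levels. The difference of SKIL turned in sign, from -0.33 to 0.22 on the log2 scale, when each library was rescaled to an equal sum.

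**Figure D1:**
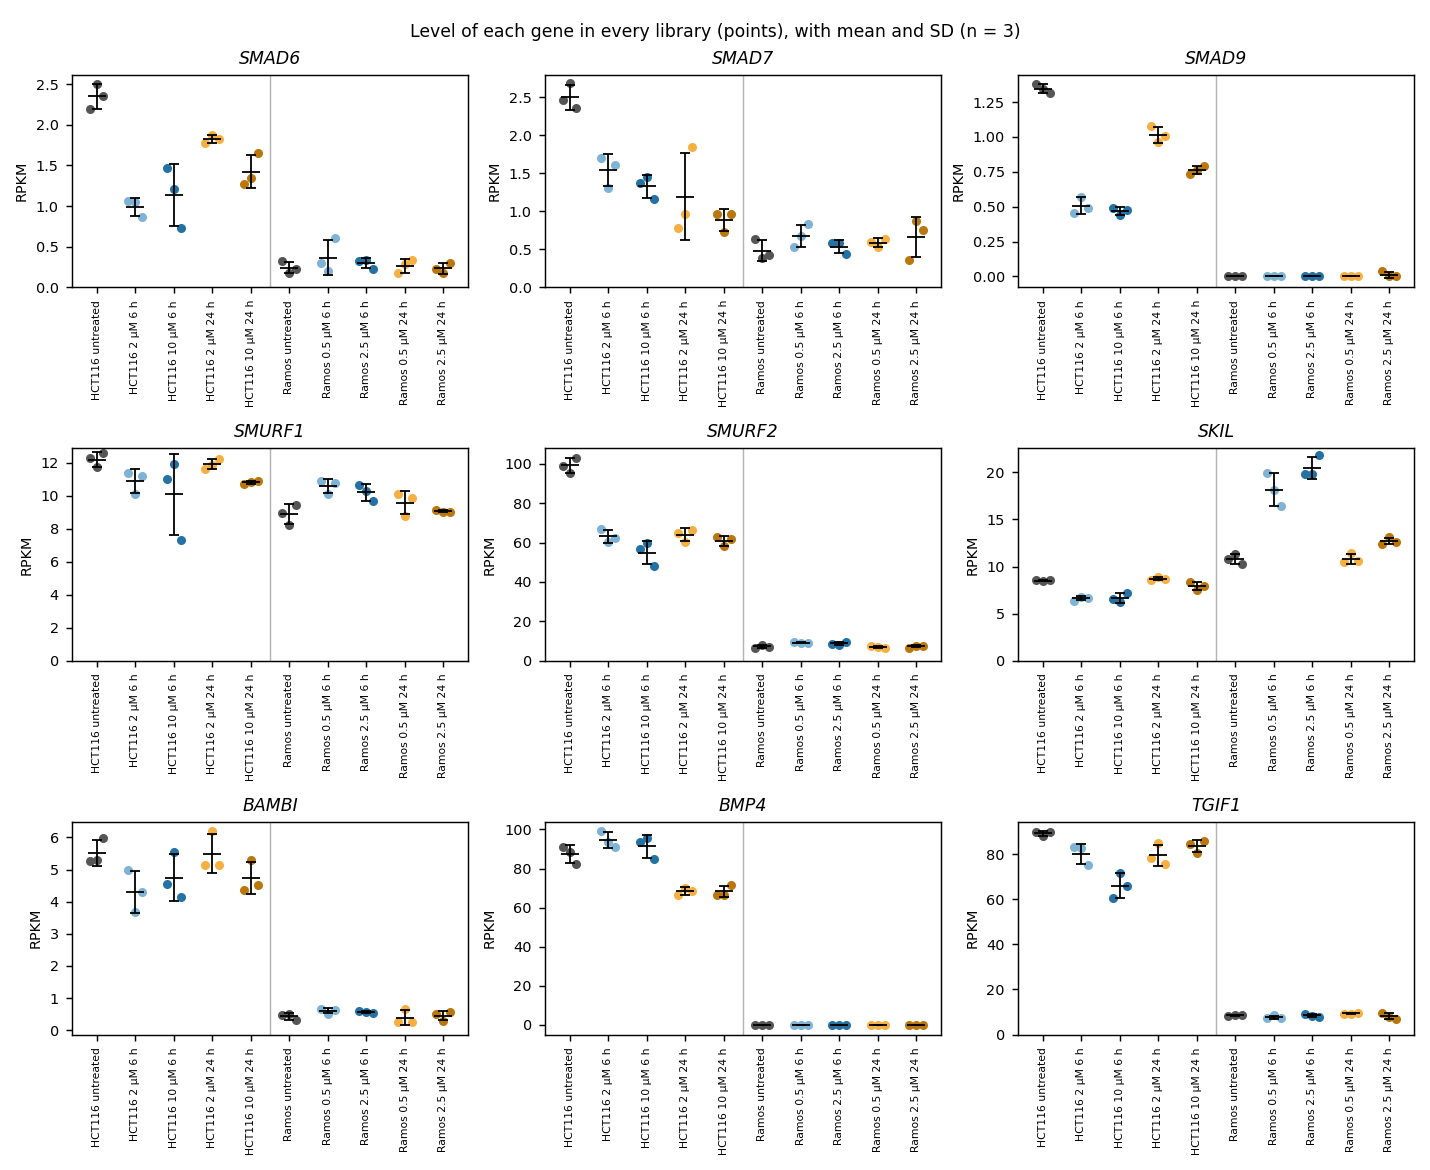
RPKM of each of the 9 genes (vertical axes, each starting at or just below 0) in the 5 HCT116 groups and the 5 Ramos groups (horizontal axes), with points for the 3 libraries of a group and bars for the mean and SD. SMAD6, SMAD7, SMAD9, SMURF2 and TGIF1 are highest in untreated HCT116 cells, apart from every other group. SMURF1 and BAMBI also have their highest mean there, with overlap. SKIL is highest in Ramos cells after 6 h of Omomyc, at 16.4 to 21.8 RPKM.

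In HCT116 cells given Omomyc, several feedback inhibitors of the pathway were lower, and no member rose in any of the 4 treated groups, except that BMP4 at 2 μM and 6 h was called higher with median-ratio scaling (log2 fold change 0.25). After 6 h, 6 of the 9 members were lower at 2 μM, where 31.8% of the 14550 genes tested were lower, and 6 of 9 at 10 μM, where 21.2% of 14785 genes were lower. After 24 h, 4 of 9 were lower at 2 μM, against 10.8% of 14886 genes, and 5 of 9 at 10 μM, against 15.7% of 14827 genes. SMAD7 and SMURF2 were lower in all 4 comparisons, and SMAD6 and SMAD9 in 3 of the 4. The median log2 fold change of the 9 members was -0.34 and -0.43 at 6 h (2 and 10 μM), where that of all genes was -0.12 and -0.11, and -0.29 and -0.35 at 24 h, where that of all genes was 0.04 and 0.02. At 6 h the other scalings moved the median of all genes to 0.0008 and 0.02 (median-ratio) or to -0.42 and -0.56 (equal sum). With these scalings the share of higher genes among all called at 6 h went from 32.7% and 29.4% to 51.9% and 49.5% (median-ratio) or 6.85% and 4.37% (equal sum), and at 24 h from 60.6% and 55.3% to 23.1% and 20.5% (equal sum). The members' log2 fold changes are given unshifted and can be read against these medians.

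**Figure D2:**
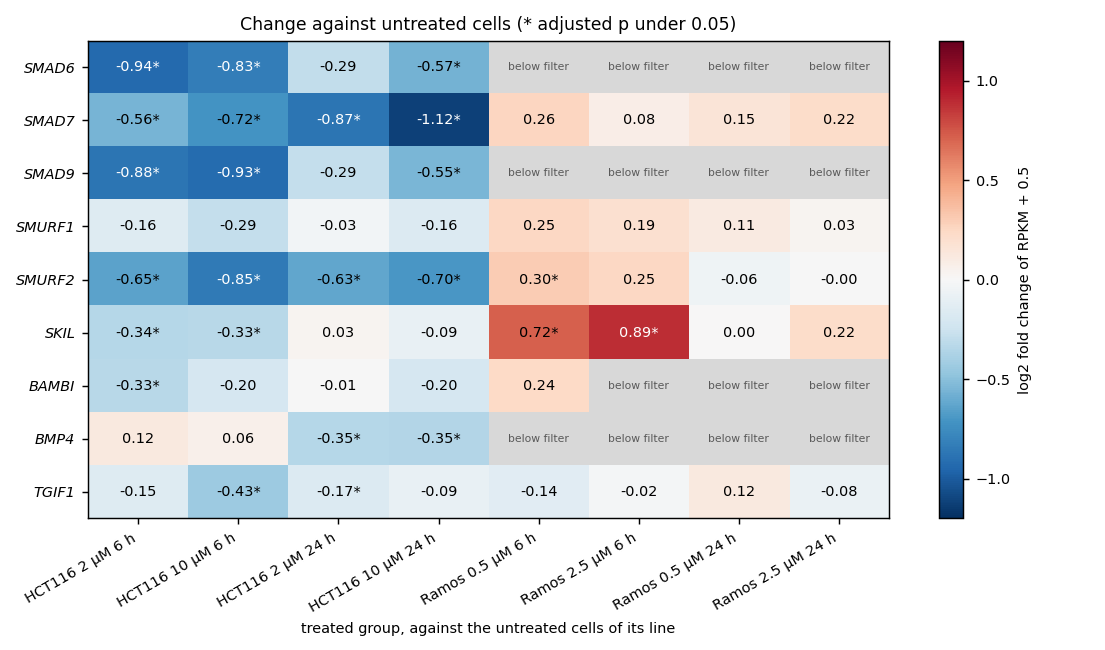
Log2 fold change of RPKM + 0.5 against the untreated cells of the same line, for 9 genes (rows) in 8 treated groups (columns). Blue is lower and red higher, stars mark an adjusted p under 0.05, and grey cells are genes under the mean RPKM of 0.5 needed for the test. The HCT116 columns hold 21 starred cells, all blue, and the Ramos columns hold 3, all red.

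SMAD7 (chr18:48919853-48952052, minus strand), the inhibitory SMAD that acts on both branches, fell the most by 24 h. It was at 2.47, 2.68 and 2.36 RPKM in untreated HCT116 cells and at 0.965, 0.726 and 0.972 RPKM after 24 h at 10 μM. The groups were well apart, and the mean fell by 64.6% (log2 fold change -1.12, SE 0.13, adjusted p = 0.0003), which was the 43rd largest fall of 14827 genes. At 2 μM and 24 h the libraries read 0.780, 0.964 and 1.85 RPKM, all under the untreated ones, with replicate 3 above the others (log2 fold change -0.87, SE 0.21, adjusted p = 0.015). That call was lost without the filter on low values (adjusted p = 0.089), and over its alternatives the adjusted p ran from 0.0012 to 0.089. After 6 h SMAD7 was at 1.71, 1.31 and 1.62 RPKM at 2 μM and at 1.37, 1.45 and 1.16 RPKM at 10 μM, below the untreated range in every library, with log2 fold changes of -0.56 and -0.72.

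SMAD6 (chr15:66702228-66782848, plus strand), which acts mainly against BMP receptors, fell by 6 h at both doses, and at 2 μM it was higher again at 24 h than at 6 h. After 6 h at 2 μM it was at 1.06, 1.05 and 0.864 RPKM, and the mean fell by 57.8% from 2.35 RPKM (log2 fold change -0.94, SE 0.13, adjusted p = 0.00053). At 10 μM and 6 h it was at 1.47, 1.21 and 0.725 RPKM, the lowest of them in the library that stood apart, with a log2 fold change of -0.83 and -0.63 without that library. The 10 μM call at 6 h was lost without the filter and without any 1 of the 3 untreated libraries (adjusted p between 0.00071 and 0.073 over all alternatives). After 24 h SMAD6 was at 1.77, 1.87 and 1.83 RPKM at 2 μM, below each untreated library but not past the threshold (log2 fold change -0.29, adjusted p = 0.065) except with median-ratio scaling or equal sums (adjusted p = 0.047 and 0.027, with 0.027 to 0.27 over all alternatives), and at 1.27, 1.35 and 1.66 RPKM at 10 μM, which was past it (log2 fold change -0.57, adjusted p = 0.0072). A sense intronic RNA, AC013564.1, overlaps SMAD6 on the same strand, as do SMAD9-IT1 with SMAD9 and the pseudogene BOD1P1 with TGIF1, and such reads cannot be told apart in the table.

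SMAD9 (chr13:36844831-36920765, minus strand) was also lowest at 6 h. It was at 1.38, 1.35 and 1.32 RPKM in untreated HCT116 cells and at 0.455, 0.573 and 0.494 RPKM after 6 h at 2 μM, and it fell by 62.4% (log2 fold change -0.88, SE 0.15, adjusted p = 0.0013). The 10 μM libraries at 6 h read 0.493, 0.441 and 0.479 RPKM (log2 fold change -0.93). Their mean of 0.471 RPKM was under the filter, which SMAD9 passed in this comparison through the untreated group. By 24 h SMAD9 was at 1.08, 0.960 and 1.004 RPKM at 2 μM, where it was not past the threshold (log2 fold change -0.29, adjusted p = 0.11), and at 0.734, 0.766 and 0.791 RPKM at 10 μM, where it was (log2 fold change -0.55, adjusted p = 0.011). All 12 treated libraries were below all 3 untreated ones. These levels are close to the filter of 0.5 RPKM, and with a filter of 2 RPKM neither SMAD6, SMAD7 nor SMAD9 was tested at 10 μM, which left 3 calls at 6 h and 2 at 24 h.

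Of the ubiquitin ligases, SMURF2 (chr17:64542295-64662068, minus strand) fell in every treated HCT116 group and SMURF1 in none. SMURF2 went from the untreated 95.4 to 103.0 RPKM to 66.9, 60.1 and 62.3 RPKM after 6 h at 2 μM and to 56.5, 59.8 and 48.3 RPKM at 10 μM. At 24 h it was at 65.0, 60.3 and 66.5 RPKM at 2 μM and at 62.6, 58.1 and 61.8 RPKM at 10 μM, so every treated library was far under the untreated ones, with 10 μM below 2 μM at 6 h. The log2 fold changes in that order were -0.65, -0.85, -0.63 and -0.70 (SE 0.05 to 0.11), with adjusted p of 0.00011, 0.0022, 0.00021 and 2.8e-05. SMURF2 was called under each alternative in these 4 comparisons. SMURF1 (chr7:99027438-99144100, minus strand) was at 12.3, 11.7 and 12.6 RPKM in untreated cells and between 10.1 and 12.2 RPKM in the treated libraries, apart from 7.29 RPKM in the library that stood apart. Its log2 fold changes, from -0.29 to -0.03, did not pass the threshold, and -0.29, at 10 μM and 6 h, became -0.08 without that library. All its libraries were below the untreated ones at 2 μM and 6 h and at 10 μM and 24 h, and it was called lower with equal sums at 6 h at both doses and at 10 μM and 24 h, and in the last also with median-ratio scaling. SMURF1 overlaps TRRAP, and SMURF2 overlaps CEP95, on the opposite strand, and how the counting used strand is not given in the sources used here.

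The nuclear repressors moved less and at different times. SKIL (chr3:170357678-170396835, plus strand) was at 6.38, 6.79 and 6.71 RPKM after 6 h at 2 μM and at 6.56, 6.22 and 7.24 RPKM at 10 μM, under the 8.43 to 8.60 RPKM of untreated cells (log2 fold changes -0.34 and -0.33, adjusted p = 0.0064 and 0.046). The 10 μM call was lost in 8 of 14 alternatives, among them median-ratio scaling and leaving out any untreated library or treated replicate 1 or 2, with adjusted p from 0.0034 to 0.26. After 24 h it was near the untreated level, at 8.58, 8.95 and 8.70 RPKM with 2 μM and 8.39, 7.55 and 7.97 RPKM with 10 μM, and was not past the threshold. TGIF1 (chr18:3411608-3459978, plus strand) was at 89.8, 87.9 and 89.8 RPKM in untreated cells and at 60.6, 71.5 and 65.9 RPKM after 6 h at 10 μM, and the mean fell by 26.0% (log2 fold change -0.43, adjusted p = 0.016). Its smaller difference at 2 μM and 24 h, 78.1, 84.7 and 75.7 RPKM, was also called (log2 fold change -0.17, adjusted p = 0.038). The call at 10 μM and 6 h was lost with median-ratio scaling and without any 1 of the untreated libraries (adjusted p from 0.00038 to 0.080), and that at 2 μM and 24 h in 8 of 14 alternatives (0.013 to 0.20), among them leaving out any untreated library or treated replicate 1 or 3. Every treated TGIF1 library in HCT116 cells was below every untreated one. The differences at 2 μM and 6 h (log2 fold change -0.15, adjusted p = 0.068) and at 10 μM and 24 h (-0.09, adjusted p = 0.15) were not past the threshold. Equal sums gave a call in both, as did leaving out treated replicate 2 at 2 μM and 6 h.

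BMP4 (chr14:53949736-53958761, minus strand) was the only member called lower at 24 h and at neither dose at 6 h. It was at 99.1, 93.4 and 91.3 RPKM after 6 h at 2 μM and at 93.8, 95.5 and 84.7 RPKM at 10 μM, which was not past the threshold in either comparison, with log2 fold changes of 0.12 and 0.06 that turned to -0.22 and -0.43 with equal sums. By 24 h it was at 66.4, 70.2 and 68.7 RPKM at 2 μM and at 66.6, 66.5 and 71.7 RPKM at 10 μM. Every 24 h library was under every untreated one, and the log2 fold change was -0.35 at both doses (SE 0.05 and 0.06, adjusted p = 0.0021 and 0.0014). BAMBI (chr10:28677342-28682939, plus strand) was at 5.28, 5.29 and 5.99 RPKM in untreated cells and at 4.97, 3.67 and 4.29 RPKM after 6 h at 2 μM (log2 fold change -0.33, adjusted p = 0.046). This call was lost in 9 of 14 alternatives, among them median-ratio scaling and leaving out any 1 of the libraries except treated replicate 1 (adjusted p from 0.0015 to 0.16). The 9 other treated libraries read between 4.14 and 6.19 RPKM and overlapped with the untreated ones.

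Without the library that stood apart, 10 μM for 6 h still gave 6 calls, whereas leaving out any 1 of the untreated libraries gave 3, with SMAD6, SKIL and TGIF1 lost. By the two-sided exact permutation test, 3 libraries against 3 cannot give a p below 0.1, and each of the 21 calls in HCT116 cells had that smallest value, since the groups did not overlap.

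Time at a fixed dose was then compared within HCT116 cells. From 6 to 24 h at 2 μM, SMAD6 rose by 0.64 (SE 0.14), SMAD9 by 0.59 (SE 0.16) and SKIL by 0.38 (SE 0.08) on the log2 scale, with adjusted p of 0.0063, 0.016 and 0.0070, while BMP4 fell by 0.46 (SE 0.06, adjusted p = 0.0010). These are 4 calls among 9 members, beside 40.8% of 14775 genes, which is near the background. The call of SKIL was lost with median-ratio scaling (adjusted p from 0.0019 to 0.067 over its alternatives) and that of SMAD9 without replicate 1 of 2 μM at 24 h (0.0019 to 0.065). The median of all genes in this comparison was 0.16. At 10 μM, 0 of 9 members were called between the times, against 7.86% of 14920 genes, although SMAD7, BMP4 and TGIF1 had an unadjusted p under 0.05. Without the library that stood apart, 2 members were called there, BMP4 and TGIF1.

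The doses did not differ in any member by limma's test. Between 10 and 2 μM at 6 h, 0 of the 8 members tested were called, as were 0 of 14601 genes (0% of them, with 1242 genes at an unadjusted p under 0.05, TGIF1 the only member among them). At 24 h, 0 of 9 members were called beside 27 of 15039 genes (0.180%), and 0 members had an unadjusted p under 0.05. SMAD6, SMAD9, SMURF1 and SKIL were nonetheless lower in all 3 libraries at 10 μM than in all 3 at 2 μM at 24 h, as were SMURF2 and TGIF1 at 6 h, which is as far as 3 against 3 can go (exact permutation p = 0.1). For SMAD6 the log2 difference at 24 h was -0.28 with a 95% interval from -0.58 to 0.02, and for SMAD7 -0.24 with an interval from -0.76 to 0.27, which became 0.01 without replicate 3 of 2 μM. These comparisons do not show that the doses act alike.

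Ramos cells gave a different picture. Of the 9 members, 6 were above the filter at 0.5 μM and 6 h, and 5 in each of the other 3 comparisons, because SMAD6, BMP4, SMAD9 and mostly BAMBI were at or near 0. SMAD6 lay between 0.174 and 0.608 RPKM and BAMBI between 0.258 and 0.653 RPKM in the 15 Ramos libraries, SMAD9 was listed at 0 in 14 of them, and BMP4 was at most 0.069 RPKM. After 6 h, 2 of 6 members were higher at 0.5 μM, beside 13.8% of 13614 genes, and 1 of 5 at 2.5 μM, beside 17.3% of 13595 genes. The count at 2.5 μM is near the background. The median log2 fold change of the members tested was 0.25 and 0.19, and that of all genes 0.02 and 0.03. None was lower. With equal sums the share of higher genes among all called went from 58.7% and 61.8% to 79.7% and 85.2%.

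SKIL was called higher in Ramos cells at both doses at 6 h. It rose from 10.9, 11.4 and 10.3 RPKM in untreated cells to 19.9, 18.2 and 16.4 RPKM after 6 h at 0.5 μM and to 19.8, 19.8 and 21.8 RPKM at 2.5 μM. The lowest treated library at 6 h was above the highest untreated one, and the mean was 1.68-fold and 1.89-fold higher (log2 fold change 0.72, SE 0.08, adjusted p = 0.00054, and 0.89, SE 0.07, adjusted p = 7.4e-05). At 24 h SKIL was at 10.5, 11.4 and 10.6 RPKM with 0.5 μM, overlapping the untreated libraries. With 2.5 μM it was at 12.4, 13.1 and 12.6 RPKM at 24 h, above the untreated libraries but not past the threshold (log2 fold change 0.22, SE 0.07, adjusted p = 0.094). From 6 to 24 h at 2.5 μM it fell by 0.67 on the log2 scale (SE 0.06, adjusted p = 9.6e-05), the single call among 6 members tested, beside 23.0% of 13564 genes.

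SMURF2 in Ramos cells was at 6.81, 8.09 and 7.29 RPKM without Omomyc and at 9.45, 8.999 and 9.18 RPKM after 6 h at 0.5 μM (log2 fold change 0.30, SE 0.08, adjusted p = 0.032). Leaving out any 1 of the 6 libraries except untreated replicate 2 ended this call, which had an adjusted p from 0.012 to 0.093 over its 14 alternatives. At 2.5 μM and 6 h it was at 8.65, 8.23 and 9.71 RPKM (log2 fold change 0.25, adjusted p = 0.081). SMURF1 was at 8.96, 8.22 and 9.41 RPKM in untreated cells and at 10.9, 10.1 and 10.8 RPKM after 6 h at 0.5 μM, all above the untreated range (log2 fold change 0.25, adjusted p = 0.050, just over the threshold), and it was called in 5 of 14 alternatives, among them the fit of all 5 groups and leaving out untreated replicate 3. SMAD7 was between 0.364 and 0.873 RPKM in all Ramos libraries, and TGIF1 between 7.09 and 9.67 RPKM, with overlap between treated and untreated libraries at 6 h. After 24 h, 0 of 5 members were called at 0.5 μM, where 0.0146% of 13674 genes were called, and 0 of 5 at 2.5 μM, where 4.61% of 13607 were. SKIL at 2.5 μM was the only member there with an unadjusted p under 0.05. No other tool was run.

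Whether the response differed between the lines was tested directly, as the change in HCT116 cells at 2 μM minus the change in Ramos cells at 2.5 μM. The doses are not the same, and the reagent and the line cannot be told apart. At 6 h, 6 of the 8 members tested had a lower change in HCT116, beside 28.4% of 15562 genes. SMAD6 and BAMBI, 2 of these 6, passed the filter through their HCT116 levels and were under it in the Ramos comparison alone. The difference was -1.23 for SKIL (SE 0.08, adjusted p = 2.7e-06), whose groups moved in opposite directions, -1.03 for SMAD6 (SE 0.15, adjusted p = 0.00035) and -0.89 for SMURF2 (SE 0.11, adjusted p = 8.3e-05), on the log2 scale. SMAD7 (-0.64), BAMBI (-0.52) and SMURF1 (-0.35) were also called. Of these, SMURF1 was lost with median-ratio scaling, and BAMBI with it, without the filter, and without untreated HCT116 replicate 3, untreated Ramos replicate 3 or Ramos 2.5 μM 6 h replicate 1. The median difference over all genes was -0.14 at 6 h.

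At 24 h the difference was called for 3 of 9 members, beside 9.51% of 15714 genes. It was -1.10 for SMAD7 (SE 0.31, adjusted p = 0.036), -0.62 for SMURF2 (SE 0.10, adjusted p = 0.0024) and -0.40 for BMP4 (SE 0.08, adjusted p = 0.0089). The SMAD7 call was lost in 12 of 18 alternatives, 9 of which left out a library (all but HCT116 2 μM 24 h replicate 3, Ramos untreated replicate 1 and Ramos 2.5 μM 24 h replicate 1), and its adjusted p ran from 0.0051 to 0.094. For BMP4 and SMAD9 the Ramos libraries were at or near 0, so they entered the test through HCT116 alone and the difference restates the change there. The replicate block left 1 call at 24 h. With equal sums, 8 of 9 members were called at 24 h. That scaling also raised the calls over all genes from 2565 to 6381 of 15714, with a median difference of -0.30.

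**Figure D3:**
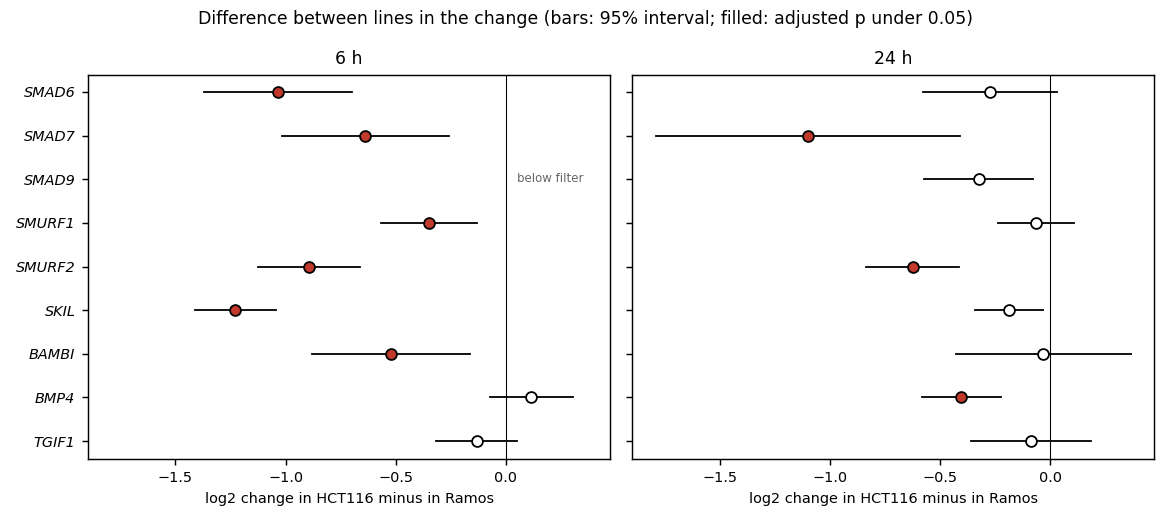
Log2 change in HCT116 cells (2 μM Omomyc against untreated) minus the log2 change in Ramos cells (2.5 μM against untreated), on the horizontal axes, for each gene at 6 h (left) and 24 h (right). Points are estimates, bars 95% intervals, and filled points have an adjusted p under 0.05. SKIL lies farthest to the left at 6 h, at -1.23, and SMAD7 at 24 h, at -1.10.

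The rest of the pathway was described from a list of 52 genes grouped by role. In HCT116 cells at 10 μM and 24 h, 38 of them were above the filter, of which 5 were higher, beside 19.5% of all 14827 genes, and 12 lower, beside 15.7%. The target genes had 5 of 7 lower and 0 higher.  ID1, ID2 and ID3, the inhibitor-of-DNA-binding proteins that are standard readouts of BMP signaling, went from 270, 65.2 and 87.1 RPKM to 91.9, 14.0 and 18.6 RPKM (log2 fold changes -1.55, -2.19 and -2.20, each with an SE of 0.07 to 0.08). The paper reports the fall of ID3 in HCT116 cells, also by RT-PCR, and names the gene as an effector of transformation by MYC. BMP signaling itself was not measured, and the cause of these falls was not tested. JUNB, an AP-1 subunit that TGF-beta and BMP induce, fell by 0.92 and CCN2, a matrix-associated growth factor, by 0.72 on the log2 scale. CCN2, at 0.434 RPKM after treatment, was not called without the filter or without untreated replicate 1 or 3 (adjusted p from 0.0060 to 0.075), whereas the ID genes and JUNB were called under each alternative. At 6 h CCN2 had been far higher than in untreated cells, at 27.8 RPKM against 1.07 RPKM at 2 μM (log2 fold change 4.18). The target genes went both ways at 6 h, with 4 of 7 lower and 3 higher at 2 μM, beside 31.8% and 15.5% of all genes. At 10 μM and 6 h, 3 of 7 were lower and 2 higher, where 21.2% of 14785 genes were lower and 1307 genes higher.

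Upstream of the targets the changes in HCT116 cells at 10 μM and 24 h were smaller. In that comparison 19.5% of all 14827 genes were higher and 15.7% lower. Of 5 ligands above the filter, TGFB1 was higher (log2 fold change 0.48, lost in 3 of 14 alternatives) and BMP6 lower (-0.41, lost in 8 of 13 alternatives, among them leaving out any untreated library or treated replicate 1 or 2). FSTL3, a secreted binder of activins, was higher at both doses and times, with 15.2 RPKM at 10 μM and 24 h against 9.18 RPKM (log2 fold change 0.70, adjusted p = 0.00017). Of 9 receptors, 2 were higher and 1 lower, and of the 5 receptor-regulated and common SMADs only SMAD2 was called, with a log2 fold change of -0.29. These counts of receptors and SMADs are near the shares of all genes. Among 10 intracellular regulators, 4 were lower, beside 15.7% of all genes, and 1 higher, beside 19.5%. TGIF2, the paralog of TGIF1, changed the most of them (log2 fold change -0.59, adjusted p = 0.00064). At 6 h and 2 μM, 4 of the 5 receptor-regulated and common SMADs were lower, beside 31.8% of all 14550 genes, and 1 higher, beside 15.5%. The balance of lower and higher calls among all genes moved with the scaling there, as given above.

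In Ramos cells at 2.5 μM and 6 h, 31 of the 52 genes were above the filter, with 7 higher, beside 17.3% of all genes, and 5 lower, beside 10.7%. Of the target genes, 0 of 6 were lower and only ID1 was called higher, from 14.2 to 16.3 RPKM (log2 fold change 0.19), a call that leaving out any 1 of the 6 libraries ended (adjusted p from 0.0068 to 0.16). At 0.5 μM and 6 h, 4 of the 6 target genes were higher, beside 13.8% of all genes, namely ID2 (log2 fold change 0.34, from 48.6 to 61.7 RPKM), ID1 (0.24), ID3 (0.18) and CDKN2B, a cell cycle inhibitor (0.83, from 0.542 to 1.32 RPKM). Of these, ID2 was called under each alternative, whereas ID1 was lost in 8 of 14, ID3 in 4 of 14 and CDKN2B in 9 of 13. Leaving out a single library ended the call of ID1 for any but treated replicate 1, of CDKN2B for any but untreated replicate 3, and of ID3 for treated replicates 2 and 3 and untreated replicates 1 and 2. The ligand BMP7 rose from 37.4 to 64.6 RPKM (log2 fold change 0.78, adjusted p = 0.00018) and TGFB1 from 9.60 to 14.1 RPKM (0.53, adjusted p = 0.0016). FSTL3 (0.76) and SKI, the corepressor related to SKIL (0.56), were higher too, SKI not without treated replicate 1 or 3 or untreated replicate 3. Without treated replicate 3, 7 pathway genes were called in place of 12. FST, follistatin, was lower, at 0.229 against 0.948 RPKM (log2 fold change -0.99), both of which are low levels. 

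**Figure D4:**
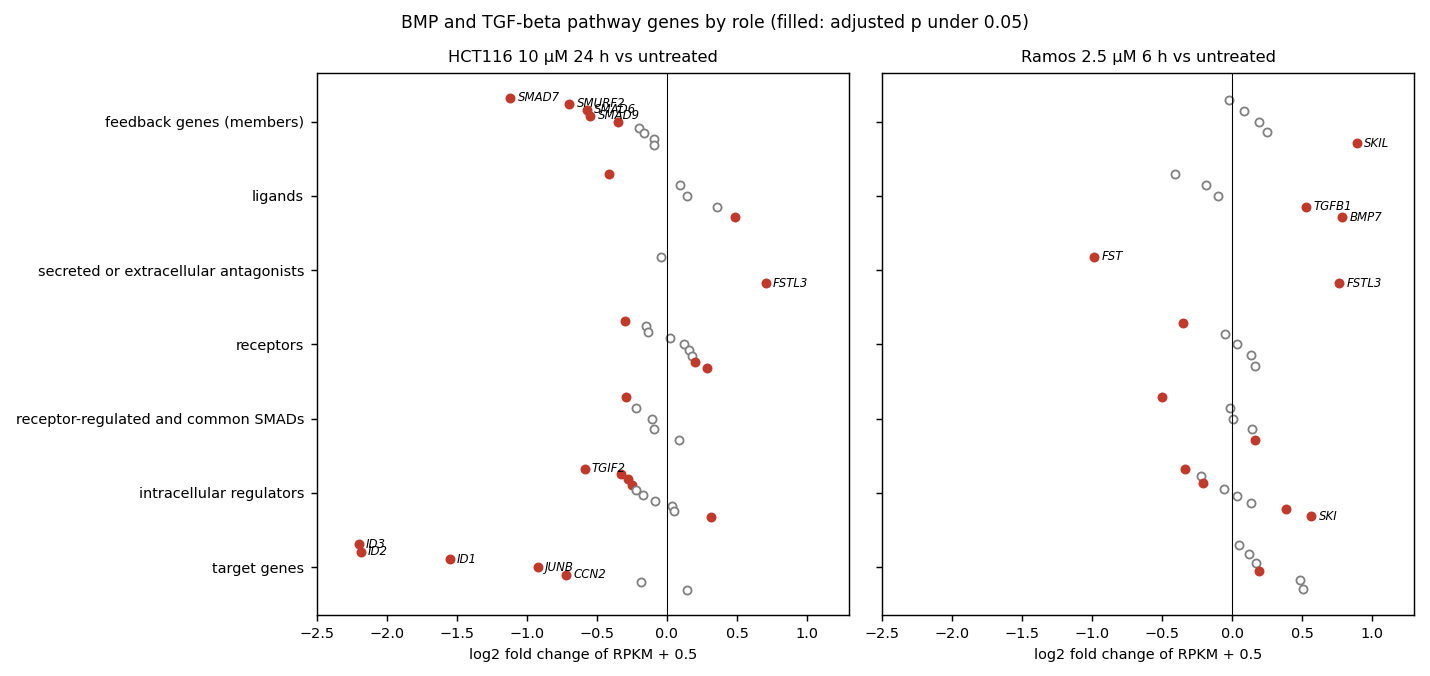
Log2 fold change of RPKM + 0.5 (horizontal axes) for the members and for pathway genes grouped by role (rows), in HCT116 cells at 10 μM and 24 h (left) and Ramos cells at 2.5 μM and 6 h (right), each against untreated cells. Filled points have an adjusted p under 0.05, and those past 0.5 in either direction are named. ID1, ID2 and ID3 lie between -2.20 and -1.55 on the left, and SKIL is at 0.89 on the right.

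Genes whose course over the 15 HCT116 libraries was most like that of SMAD6, SMAD7 and SMURF2 were picked by Pearson's r on log2(RPKM + 0.5) among 11465 genes with a mean of at least 2 RPKM. They are given as a description, since the libraries share their groups and the untreated controls. For SMAD6 these were DYNC1LI2, a dynein light intermediate chain (r = 0.965), the mitotic kinesin KIF15 (0.962) and the transcription factor KLF7 (0.957). SMAD7 was most like SPRY4, a feedback inhibitor of receptor tyrosine kinase signaling (0.899), the apoptosis inhibitor BCL2L1 (0.891) and ZNF451 (0.879). Among the genes most like SMURF2 were the splicing factor SRSF1 (0.980) and MORC4 (0.962).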

How the data were processed

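Total RNA depleted of ribosomal RNA was sequenced from 30 libraries with a strand-specific kit. The authors deposited RPKM values for 57992 genes, with 1 column per library, which their processing notes credit to RSEM. The aligner, genome build and annotation are not given in the sources used here, and depth is unknown. Symbols came from a list of gene names by identifier, which covered 56948 of the identifiers, and otherwise from GENCODE 29 (GRCh38). GENCODE 29 holds 57388 of the identifiers and gave the gene positions. Log2(RPKM + 0.5) was fitted with limma 3.58.1 in R 4.3.3 (lmFit, eBayes with trend), keeping genes whose mean over the groups compared reached 0.5 RPKM, with Benjamini-Hochberg adjustment over all genes tested. The 16 comparisons comprised 14 pairs of groups and 2 interactions. Single genes also had a two-sided exact permutation test. The fit was tested on simulated data. The alternatives were pseudocounts of 0.1 and 1, no filter, a filter of 2, median-ratio and equal-sum scaling, a replicate block, all 5 groups of a line together, and leaving out each library. The members, pathway list, markers, motifs and tests were chosen with earlier results of these data known. Named genes are the 9 members, pathway genes called with a log2 fold change of 0.5 or more in size in HCT116 at 10 μM and 24 h or Ramos at 2.5 μM and 6 h, and the 3 genes most like SMAD6, SMAD7 and SMURF2. BMP6, SMAD2 and CDKN2B were named after their values were seen. A B cell marker and a gene most like SMURF2 are not reported here.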

Additional observations from a re-analysis of the deposited data

Results flagged for a closer look

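The change after Omomyc differed between the lines, by a test of the difference itself, for 6 members at 6 h and 3 at 24 h (HCT116 at 2 μM minus Ramos at 2.5 μM, log2 scale), beside 28.4% and 9.51% of all genes with a lower change in HCT116. At 6 h the differences were -1.23 for SKIL, -1.03 for SMAD6, -0.89 for SMURF2, -0.64 for SMAD7, -0.52 for BAMBI and -0.35 for SMURF1. At 24 h they were -1.10 for SMAD7, -0.62 for SMURF2 and -0.40 for BMP4. The call was lost for SMAD7 at 24 h in 12 of 18 alternatives, for BAMBI at 6 h in 5 of 19, for SMURF1 in 1 of 19, with median-ratio scaling, and for BMP4 with the replicate block, which left 1 call at 24 h. SMAD6, BAMBI and BMP4 entered the test through their HCT116 levels, so that the value for BMP4 restates its change in HCT116. The dose, the transfection reagent and the line cannot be told apart in these differences, and SMAD6, SMAD7, BAMBI and BMP4 were at low levels or listed at 0 in the Ramos libraries.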

How the results depend on the processing

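Of 141 counts of members or pathway genes called under alternatives other than leaving out a library, 121 stayed within 1.5 times the count given above. The others follow, as members unless named. With a filter of 2 RPKM, the counts were 3 for HCT116 at 10 μM and 6 h, 2 at 10 μM and 24 h, 2 and 1 for 24 h against 6 h at 2 and 10 μM, and 2 for 24 h against 6 h in Ramos. That filter changes both the members tested and the genes that enter the fit and its adjustment. Without a filter they were 2 for HCT116 at 2 μM and 24 h, 1 for Ramos at 0.5 μM and 6 h and 7 pathway genes for Ramos at 2.5 μM and 6 h. Equal sums gave 8 for HCT116 at 10 μM and 24 h, 3 for Ramos at 2.5 μM and 6 h, 1 for Ramos at 2.5 μM and 24 h, and 8 for the difference between lines at 24 h. The calls over all genes moved with them. Lower genes went from 2332 to 3897 of 14827 for HCT116 at 10 μM and 24 h. All calls went from 3795 to 4677 of 13595 and from 627 to 5365 of 13607 for Ramos at 2.5 μM (6 and 24 h). For the difference between lines at 24 h they went from 2565 to 6381 of 15714. Median-ratio scaling gave 1 for 24 h against 6 h in HCT116 at 10 μM and 2 in Ramos. A fit of all 5 groups of a line gave 3 for Ramos at 2.5 μM and 6 h, and for 24 h against 6 h 4 in HCT116 at 10 μM and 2 in Ramos, with 10 pathway genes for HCT116 at 10 μM and 24 h. The cause of these moves was not tested.

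The replicate block gave 1 call for Ramos at 0.5 μM and 6 h and 1 for the difference between lines at 24 h, and the other counts stayed within 1.5 times. Same-numbered libraries did not deviate together in every pair of any comparison, so the numbers were not taken as a pairing.

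Without 1 library, the counts ran from 3 to 6 for HCT116 at 10 μM and 6 h, from 0 to 2 for 24 h against 6 h at 10 μM, from 1 to 2 for Ramos at 0.5 μM and 6 h, and from 1 to 2 for Ramos at 2.5 μM and 6 h (2 without untreated replicate 2), with 7 to 11 for the pathway genes of the last. Of 96 single values, the sign of 8 turned under some setting. BMP4 in HCT116 at 6 h became -0.22 (2 μM) and -0.43 (10 μM) with equal sums. SKIL in HCT116 at 2 μM and 24 h (0.03) became -0.0017 with median-ratio scaling and -0.11 with equal sums. TGIF1 in Ramos at 2.5 μM and 6 h (-0.02) became 0.11 with equal sums and ran from -0.078 to 0.018 without 1 library. SKIL in Ramos at 0.5 μM and 24 h (0.0006) became -0.020 with median-ratio scaling and ran from -0.036 to 0.035 without 1 library. BAMBI in HCT116 at 2 μM and 24 h (-0.0093) ran from -0.092 to 0.046. SMAD7 between the HCT116 doses at 24 h ran from -0.42 to 0.014. SKIL between the untreated lines became 0.22 with equal sums. Only the last of these was called. Low levels limit SMAD6, SMAD7 and SMAD9, whose fold changes the pseudocount understates.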
